A study of Micropterus salmoides with 18 samples.

Results

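The genes described here encode splicing factors and the kinases that act on them, in gonads of largemouth bass (Micropterus salmoides, a farmed freshwater fish). They were taken by name: every lower-case symbol of the deposited table that began with srsf and a digit, clk1 to clk4, hnrnp, sf3a, sf3b, u2af, tra2 or srrm. The rule found 44 genes among 43106 entries, and all 44 matched a RefSeq symbol. They comprised 12 SR protein genes, 2 tra2 genes, 4 srrm genes, 3 CLK kinase genes, 12 hnRNP genes, 9 genes of the SF3A and SF3B complexes and 2 u2af genes. The study held 216 fish in 12 tanks of 18, with males and females apart. Tanks were kept at 20 °C or warmed to 28 °C within 2 h. Gonads were sampled at the start (IC, day 0) and 28 days later from the 20 °C tanks (NC) and the 28 °C tanks (HT). The temperature of the IC fish is not stated by the labels, so contrasts with day 0 may differ in more than time. The letters F and M are the labelled sexes, and each of the 6 groups had 3 libraries. Separate fish or tanks per library are not stated by any label, so the p-values reflect only the spread among these libraries, which may be technical.

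A transcript is spliced when U2AF binds the end of an intron and the SF3A and SF3B complexes, parts of the U2 small nuclear ribonucleoprotein, settle on the branch point. SR proteins bind exon sequences and promote the use of nearby splice sites, with the Tra2 proteins as SR-like partners and the SRRM proteins as co-activators, while many hnRNP proteins repress splice sites or bind introns. CLK kinases phosphorylate SR proteins, and in vertebrate cells their activity depends on temperature, being higher in cooler cells. Levels of RNA, as measured here, say nothing about kinase activity or about which exons were used.

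Oocyte and sperm genes went against the labelled letter in some libraries. Over 8 oocyte genes, the summed level lay at 6379 to 8096 FPKM (fragments per kilobase of gene, scaled to the mapped fragments) in 9 libraries (IC-M, HT-M and NC-F) and at 47.1 to 198 in the remaining 9 (HT-F, IC-F and NC-M). Over 15 sperm and flagellum genes it lay at 8.04 to 12.3 in the former and at 1011 to 4035 in the latter. The former are called ovary-type and the latter testis-type, while groups keep their labelled names. The IC and HT libraries thus stood against their letter, and the labels do not say whether a letter or a prefix is wrong. Day and temperature follow the prefix as labelled. If a prefix is wrong, the contrasts of day and temperature below would not compare what their names say. One group was uneven. Over the 44 genes, the correlation of log2 levels was 0.989 between NC-M 1 and NC-M 2 but 0.943 and 0.96 between NC-M 3 and those libraries, against at least 0.979 within every other group. The summed sperm genes stood at 1137, 1011 and 1884 in NC-M 1, NC-M 2 and NC-M 3. Counts of called genes that rest on NC-M are therefore given with and without NC-M 3. That library was singled out from these same data, and leaving it out tends to narrow the spread within NC-M. Calls made without it are therefore descriptions and no added support. Sequencing depth cannot be read from FPKM and is unknown. The samples were whole gonads, so fewer cells of a type and less RNA per cell cannot be told apart.

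Levels ranged widely among the 44 genes. The branch-point subunit gene sf3b6 stood between 174 and 572 FPKM and u2af1, the small subunit that reads the end of the intron, between 84.6 and 485. In ovary-type libraries u2af1 was the highest of the 44 by its median of 420.4, followed by hnrnpa1b at 320.5. In testis-type libraries sf3b6 led with a median of 496.8. At the other end, srrm4 (a regulator of neuronal microexons in mammals) did not exceed 0.17 in any library. Srrm3, its relative, reached 1.07 to 2.19 in testis-type libraries and at most 0.11 in ovary-type ones. Srsf10a stood at 0.15 to 0.85 in ovary-type and at 0.72 to 4.11 in testis-type libraries. The summed level of all 44 genes was 2969 ± 124 (SD, n = 3) in IC-M, 3044 ± 65.0 in NC-F, 3145 ± 155 in HT-M, 3113 ± 79.3 in IC-F, 3209 ± 589.7 in NC-M and 3944 ± 213 in HT-F. The 3 HT-F libraries, at 3700.1 to 4094, lay above all ovary-type and all IC-F libraries, and NC-M spread from 2628 to 3807.

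**Figure D1:**
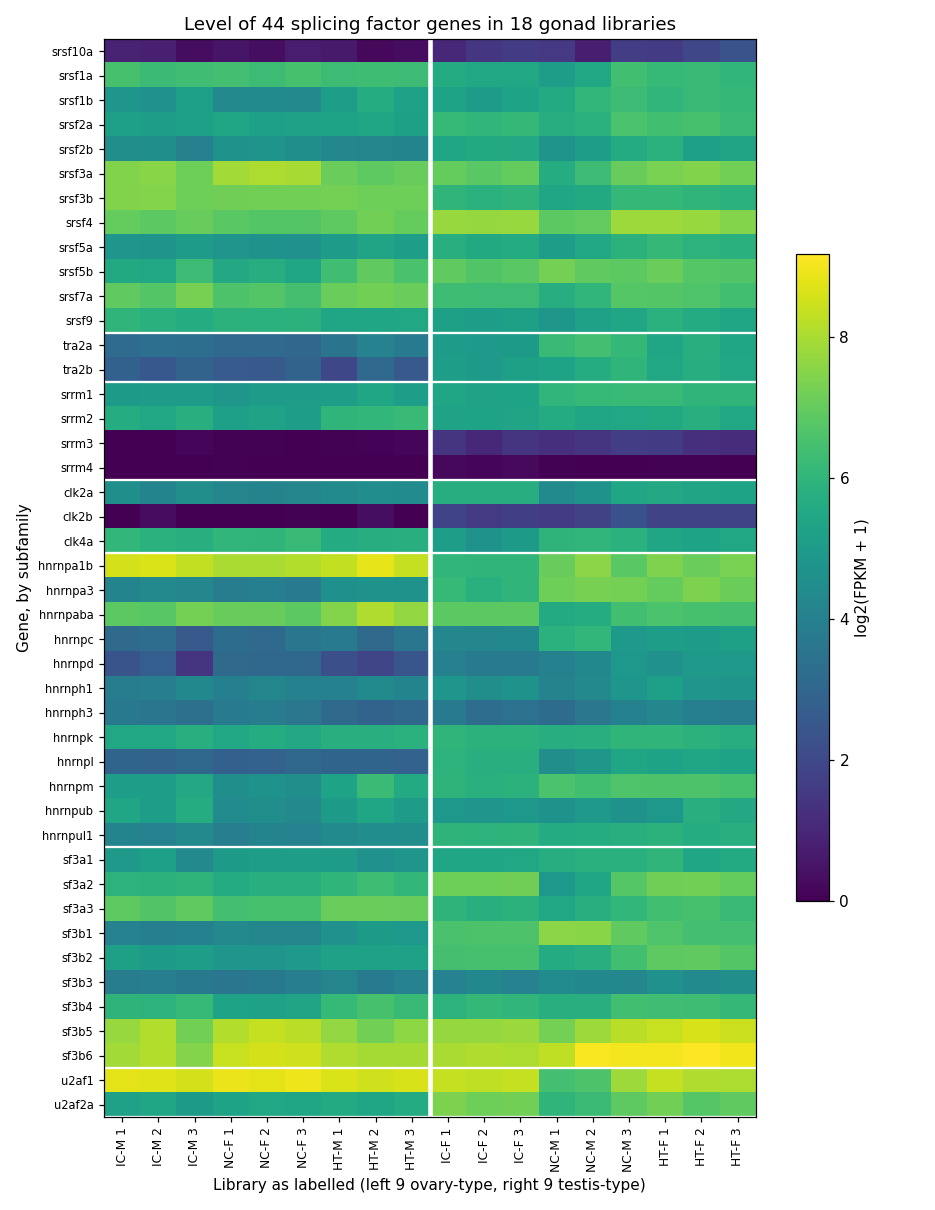
Levels of the 44 genes (rows, by subfamily) in the 18 libraries (columns), coloured by log2(FPKM + 1). The left 9 libraries are ovary-type and the right 9 testis-type; hnrnpl, tra2a, tra2b and sf3b1 are dark on the left, hnrnpa1b and srsf3b are brighter on the left, and NC-M 1 and NC-M 2 differ from NC-M 3 in u2af1 and sf3a2.

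Within several families some genes were higher in testis-type and others in ovary-type gonads. Tests here and below were made with limma on log2(FPKM + 1) over all genes, with calls at a Benjamini-Hochberg adjusted p under 0.05. At day 0, IC-F had the higher level for 26 of 43 tested genes and IC-M for 9, where 49.3% and 28.6% of 25184 genes were called in those directions. After 28 days at 20 °C, 27 were higher in NC-M and 8 higher in NC-F (48.9% and 27.9% of all genes), and at 28 °C 28 were higher in HT-F and 7 in HT-M (47.7% and 26.3% of all genes). The share called, 81.4% of the 43 genes in each pair, lay near that of all genes (77.9%, 76.7% and 74.0%). Without NC-M 3 the counts at 20 °C were 23 and 11, where 11914 of all 24881 genes were higher and 7404 lower. Rescaling the libraries by the median of ratios gave 19 higher and 11 lower at day 0, 21 and 12 at 20 °C and 23 and 11 at 28 °C. Of the called splicing factor genes 63.3%, 63.6% and 67.6% were then higher, and of all called genes 57.5%, 57.5% and 56.5%. The rescaling lowered the median change of all genes from 0.57 to 0.37, from 0.57 to 0.36 and from 0.52 to 0.29. Sf3b3 and srrm1 at day 0, and hnrnpk and srrm2 at 20 °C, lost their call and turned direction with that scaling. Clk2b, srrm3 and srsf10a are among the higher genes in each pair. They passed the filter (1 FPKM or more in at least 3 libraries) only through testis-type libraries. A call of them could therefore only be higher in the testis. With a filter at 5 FPKM, 23 were higher and 9 lower at day 0. At 20 °C the counts were 24 and 8, and at 28 °C 25 and 7. Shares of all genes are not given for that filter.

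Among the 44 genes, 14 stood in every testis-type library above every ovary-type library, and 3 the other way round. Of all 25184 genes tested, 32.0% and 17.4% did so. The 14 were clk2b, hnrnpa3, hnrnpc, hnrnpd, hnrnpl, hnrnpul1, sf3a1, sf3b1, sf3b2, srrm3, srsf2a, tra2a, tra2b and u2af2a. The 3 were hnrnpa1b, srsf3b and u2af1. Of the 14, clk2b and srrm3 passed the filter only through the testis-type libraries.

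The Tra2 genes, whose products bind purine-rich exon enhancers, were low in ovary-type gonads. Tra2b stood at 6.18, 4.73 and 6.62 FPKM in IC-M and at 33.8, 29.2 and 35.7 in IC-F. At 28 °C it stood at 3.00, 7.75 and 4.87 in HT-M and at 43.0, 51.1 and 44.4 in HT-F. No library of one type reached the range of the other, and the log2 difference was 2.31 ± 0.236 (SE) at day 0 (limma adjusted p = 3.15e-07) and 2.99 ± 0.236 at 28 °C (limma adjusted p = 2.24e-08). Tra2a differed by 3.14 ± 0.135 between NC-M and NC-F (limma adjusted p = 1.89e-11).

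Among the SR genes, srsf3b was lower in every testis-type library than in any ovary-type one. It stood at 139.8 to 174 in the 9 ovary-type libraries and at 41.9 to 68.2 in the 9 testis-type ones. The log2 difference was −1.41 ± 0.146 at day 0, −1.51 ± 0.146 at 20 °C and −1.20 ± 0.146 at 28 °C (limma adjusted p = 3.83e-07, 2.01e-07 and 2.94e-06). SRSF3, the smallest classical SR protein, also takes part in mRNA export. Its paralogue srsf3a was lower in NC-M than in NC-F (−1.63 ± 0.235, limma adjusted p = 1.48e-05) and was not called at day 0 or at 28 °C.

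The hnRNP genes split in the same manner. Hnrnpl, whose product binds CA-rich RNA, stood at 6.74, 6.50 and 7.38 in IC-M and at 60.0, 54.6 and 53.3 in IC-F, a log2 difference of 2.85 ± 0.167 (limma adjusted p = 5.81e-10). It stayed within 5.94 to 7.38 over all 9 ovary-type libraries. Hnrnpa1b, of the A/B family that represses splice sites, ran the other way, at 382, 401 and 317 in IC-M and 64.9, 63.4 and 62.8 in IC-F (−2.50 ± 0.175, limma adjusted p = 4.54e-09). At 28 °C the difference was −1.24 ± 0.175 (limma adjusted p = 1.32e-05). Hnrnpa3, of the same family, was higher in testis-type libraries by 3.37 ± 0.114 at 20 °C and by 2.51 ± 0.114 at 28 °C (limma adjusted p = 1.29e-12 and 4.4e-11). Hnrnpd, which binds AU-rich RNA, was higher in HT-F than in HT-M by 2.61 ± 0.277 (limma adjusted p = 6.52e-07), and hnrnpaba was lower (−1.23 ± 0.191, limma adjusted p = 3.48e-05).

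Genes of the SF3A and SF3B complexes differed among themselves between the gonad types. Sf3b1, the scaffold of the SF3B complex around the branch point, stood at 15.7, 14.7 and 15.5 in IC-M and at 92.0, 96.1 and 95.5 in IC-F (2.55 ± 0.150, limma adjusted p = 6.01e-10). Sf3a3, a subunit of the partner complex SF3A, was lower in testis-type libraries at day 0, at 57.3 ± 3.65 in IC-F against 114 ± 11.1 in IC-M (−0.98 ± 0.132, limma adjusted p = 6.93e-06). Within SF3B, sf3b4, sf3b5 and sf3b6 were not called at day 0 (0.02, 0.06 and 0.22). The subunits of U2AF differed as well. U2af2a, the large subunit that binds the polypyrimidine tract, ranged from 30.5 to 49.2 in ovary-type and from 62.9 to 162 in testis-type libraries. U2af1, the small subunit, ranged from 361 to 485 and from 84.6 to 329. In NC-M it stood at 84.6, 97.3 and 223, with NC-M 3 the high library, and its difference from NC-F was −1.92 ± 0.248 (limma adjusted p = 4.56e-06), or −2.35 ± 0.103 without NC-M 3.

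Related genes shared their summed level differently between gonad types and conditions, as the plot of shares shows. The shares are descriptions and were not tested. Of the summed FPKM of hnrnpa1b and hnrnpa3, hnrnpa1b held 93.0% to 95.9% in ovary-type and 42.4% to 56.4% in testis-type libraries. Of srsf1a and srsf1b, srsf1a held 81.3% ± 1.46 in NC-F, 65.9% ± 4.27 in HT-M and 74.0% ± 4.00 in IC-M (SD, n = 3). The 3 libraries of NC-F, at 79.6% to 82.4%, lay above all 3 of HT-M, at 61.1% to 69.3%. Of srsf3a and srsf3b, srsf3a held 62.8% ± 0.813 in NC-F, 46.8% ± 1.34 in HT-M and 50.3% ± 0.857 in IC-M, and 60.8% ± 6.03, 72.0% ± 1.56 and 66.8% ± 0.298 in NC-M, HT-F and IC-F. Srsf2a held 57.8% to 71.7% of the srsf2 pair over all 18 libraries. How reads were divided between near-identical copies is not given in the sources used here, so the levels of such pairs carry that uncertainty.

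**Figure D2:**
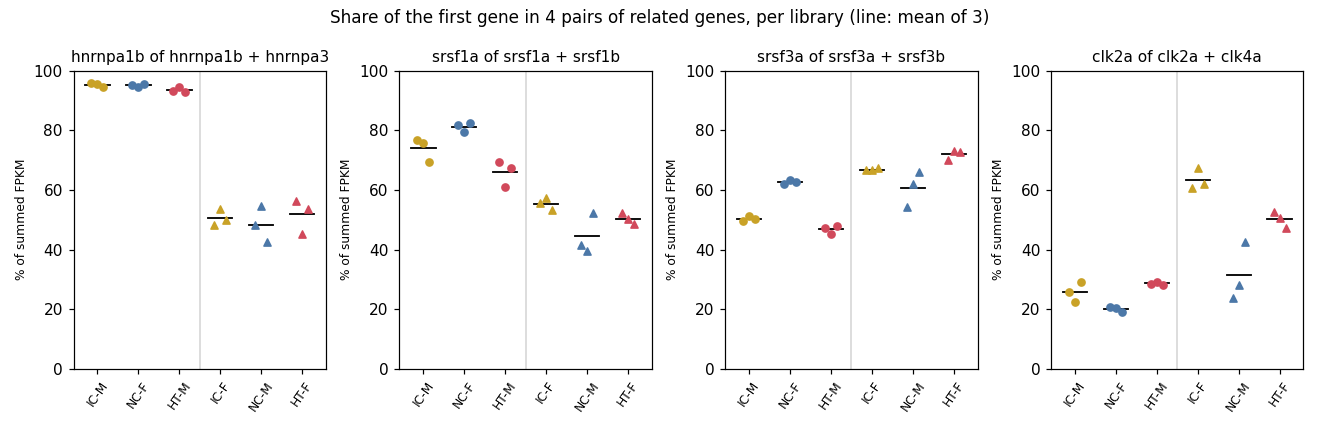
Share of the first gene in the summed FPKM of 4 pairs of related genes (y axis, percent), by group (x axis); points are libraries, circles ovary-type and triangles testis-type, and lines are means of 3. Hnrnpa1b holds over 90% in every ovary-type library and 42.4% to 56.4% in testis-type ones, and the srsf1a and srsf3a shares are higher in NC-F than in HT-M.

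The CLK kinase genes were followed in every library. Clk4a stood at 66.3, 57.3 and 53.7 FPKM in IC-M, at 65.1, 62.8 and 72.5 in NC-F and at 48.7, 51.9 and 52.2 in HT-M. In testis-type gonads it stood at 33.3, 24.5 and 31.2 in IC-F, at 62.0, 64.4 and 56.8 in NC-M and at 40.4, 39.1 and 43.2 in HT-F. In each gonad type the 3 libraries from 28 °C lay below the 3 from 20 °C without overlap. Clk4a was lower at 28 °C than at 20 °C by log2 −0.38 ± 0.0978 in the ovary (HT-M against NC-F, limma adjusted p = 0.0122) and by −0.57 ± 0.144 in the testis (HT-F against NC-M, limma adjusted p = 0.0459). The effects in the 2 gonad types differed by −0.18 ± 0.166, which was not called (limma adjusted p = 0.408). Against day 0, clk4a in the testis was higher in NC-M than in IC-F by 1.03 ± 0.144 (limma adjusted p = 0.00293). The HT-F libraries, also from day 28, lay above all IC-F libraries too, but HT-F against IC-F was not called. In the ovary NC-F and IC-M overlapped (0.18 ± 0.0978, limma adjusted p = 0.207). All HT-M libraries lay below all IC-M libraries, unlike HT-F and IC-F in the testis, but HT-M against IC-M was not called. The call of HT-M against NC-F held in all 12 alternatives. The call of HT-F against NC-M ended without any 1 library other than NC-M 3 (log2 −0.61 to −0.53, limma adjusted p = 0.0897 to 0.139). Between gonad types, clk4a was called lower in IC-F than in IC-M (log2 −0.98) and in HT-F than in HT-M (−0.31). The latter call was lost in 4 of 12 alternatives. NC-M against NC-F was not called (−0.13).

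Clk2a was higher in testis-type gonads at each time and temperature. It stood at 22.8, 16.4 and 21.9 in IC-M, at 16.9, 16.1 and 17.1 in NC-F and at 19.4, 21.4 and 20.4 in HT-M. It stood at 51.4, 50.8 and 50.7 in IC-F, at 19.3, 25.0 and 41.8 in NC-M and at 44.9, 39.9 and 38.6 in HT-F. It was higher in the testis by 1.29 ± 0.198 at day 0, by 0.68 ± 0.198 at 20 °C and by 0.97 ± 0.198 at 28 °C (limma adjusted p = 2.52e-05, 0.0059 and 0.000413). The call at 20 °C ended with median-of-ratios scaling and when NC-M and NC-F alone were fitted, and the difference was 0.38 ± 0.132 without NC-M 3 (limma adjusted p = 0.017). Between 28 °C and 20 °C it changed by 0.28 ± 0.124 in the ovary and by 0.57 ± 0.246 in the testis, neither of which was called (limma adjusted p = 0.0939 and 0.131). Without NC-M 3 the testis change was 0.87 ± 0.125 (limma adjusted p = 0.00126), a description and no added support. Clk2a was lower in NC-M than in IC-F (−0.88 ± 0.246, limma adjusted p = 0.0267), a call that ended without any 1 library other than NC-M 3. Clk2b was low throughout. It was listed at 0, 0.23 and 0 in IC-M, 0, 0 and 0.05 in NC-F and 0, 0.28 and 0 in HT-M. In testis-type libraries it lay at 1.94 to 3.92. It was called higher in the testis at day 0, at 20 °C and at 28 °C (log2 1.61, 1.86 and 1.75). It passed the filter of 1 FPKM only through testis-type libraries, so a call could only be in that direction and is no support. It was too low to be tested within the ovary, and no contrast within the testis called it.

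As a share of the summed clk2a and clk4a level, clk2a made up 20.0% ± 0.800 in NC-F, 28.6% ± 0.545 in HT-M and 25.6% ± 3.35 in IC-M. It made up 63.3% ± 3.61 in IC-F, 50.1% ± 2.75 in HT-F, and 23.8%, 28.0% and 42.4% in the 3 NC-M libraries. The NC-M libraries thus lay below all HT-F and IC-F libraries, with NC-M 3 the nearest to them.

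**Figure D3:**
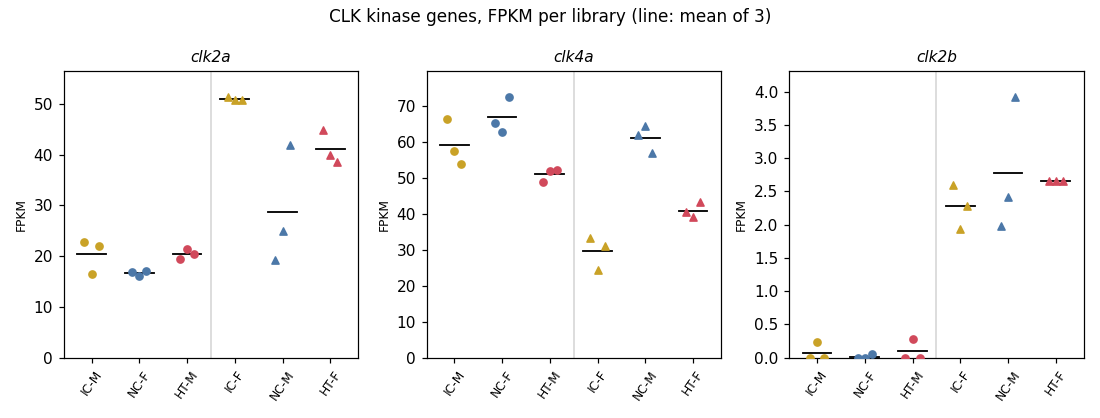
FPKM of the CLK kinase genes clk2a, clk4a and clk2b (y axes, each from 0) by group (x axis); points are libraries and lines means of 3. Clk4a is lower in HT-M than in NC-F and lower in HT-F than in NC-M, clk2a is higher in IC-F than in any ovary-type group, and clk2b is near 0 in ovary-type libraries.

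In ovary-type gonads, most of the splicing factor genes differed between the libraries labelled 28 days at 28 °C and 28 days at 20 °C. Of the 40 that could be tested, 18 were higher and 9 lower in HT-M than in NC-F, and 13 were not called. This is 67.5% of the 40, where 48.7% of all 17026 genes were called. The higher genes were 45.0% of the 40, against 28.7% of all genes, and the lower genes 22.5% against 20.0%. The median change of the 40 was 0.26 and that of all genes 0.07. With median-of-ratios scaling 14 were higher and 9 lower. The higher genes were then 60.9% of those called, against 48.0% of all called genes. With all 18 libraries in the fit 12 were higher and 6 lower, and leaving out single libraries gave 20 to 26 calls. Shares of all genes are not given for these last fits. In this and the other contrasts, all genes were not matched to the splicing factor genes for level. Changes of low genes are understated on this scale, and the part of level in the shares was not tested.

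Of 11 SR genes, 5 rose, 3 fell and 3 were not called. Srsf5b stood at 45.0, 50.8 and 41.7 in NC-F and at 79.9, 120.2 and 91.8 in HT-M. All 3 heated libraries lay above the controls, and the rise was 1.05 ± 0.225 (limma adjusted p = 0.00571). Srsf1b, one of the copies of the archetypal SR protein, stood at 18.9, 19.6 and 18.9 in NC-F and at 33.9, 50.3 and 37.3 in HT-M (1.02 ± 0.171, limma adjusted p = 0.00198), while its copy srsf1a was not called (−0.10). Srsf3a ran the other way. It stood at 234, 260 and 250 in NC-F and fell to 134, 117 and 129 in HT-M, again without overlap (−0.96 ± 0.109, limma adjusted p = 0.000342), while its copy srsf3b was not called (−0.03). The other rises were srsf4, srsf5a and srsf7a (0.31 to 0.54) and the other falls srsf2b and srsf9 (−0.50 and −0.44).

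Among the SR-related genes, tra2a rose from 7.68, 7.86 and 7.13 to 10.5, 15.8 and 12.5 (0.69) and tra2b was not called. Srrm2, whose product is a scaffold of nuclear speckles where splicing factors are stored, stood at 35.5, 37.7 and 34.1 in NC-F and at 63.2, 66.4 and 72.8 in HT-M. Its rise of 0.90 ± 0.0938 had the smallest adjusted p of the 40 (limma adjusted p = 0.000227).

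Of the 12 hnRNP genes, 6 rose, 2 fell and 4 were not called. Hnrnpm, which can both promote and repress exon use, had the largest rise. It stood at 22.5, 25.0 and 21.9 in NC-F and at 38.9, 75.6 and 47.6 in HT-M, with HT-M 2 the high library (1.14 ± 0.226, limma adjusted p = 0.00424). Hnrnph3 fell from 12.8, 13.6 and 11.5 to 8.09, 6.48 and 7.51 (−0.70 ± 0.122, limma adjusted p = 0.00229). Hnrnpd fell from 8.06, 7.59 and 7.53 to 3.70, 2.81 and 4.52 (−0.92 ± 0.302, limma adjusted p = 0.0339). The other rises were hnrnpa1b, hnrnpa3, hnrnpaba, hnrnpub and hnrnpul1 (0.42 to 0.81).

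Of the 9 SF3 genes, 5 rose, 2 fell and 2 were not called. Sf3b4, an RNA-binding subunit of SF3B, stood at 38.4, 36.9 and 39.5 in NC-F and at 69.4, 89.1 and 72.2 in HT-M (0.98 ± 0.112, limma adjusted p = 0.000355). Sf3a2, sf3a3, sf3b1 and sf3b2 also rose (0.39 to 0.61). The small subunits of SF3B went the other way. Sf3b5 fell from 273, 327 and 299 to 202, 148 and 195 (−0.73 ± 0.211, limma adjusted p = 0.0204). Sf3b6, which contacts the branch point adenosine, fell from 334, 382 and 359 to 269, 243 and 241 (−0.51 ± 0.150, limma adjusted p = 0.0216). U2af1 was lower by −0.29 and u2af2a was not called.

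Several of these calls rested on single libraries or on the fit. HT-M 2 was the heated library furthest from NC-F for srsf5b, srsf1b, srsf3a, tra2a, hnrnpm, hnrnph3, hnrnpd, sf3b4 and sf3b5, but not for srrm2 or sf3b6. Without HT-M 2, 16 genes were called higher and 4 lower, and the share of all genes is not given for that fit. The call of srsf4 was lost in 7 of 12 alternatives, and those of srsf2b, u2af1 and hnrnpa1b in 5 of 12 each. Srsf7a lost its call in 3, srsf5a in 2, and sf3a2 and sf3b2 in 1 each. The call of hnrnpd ended without HT-M 1, HT-M 2 or any 1 NC-F library (log2 −0.93 to −0.78, limma adjusted p = 0.0659 to 0.103), that of sf3b5 without HT-M 2, NC-F 2 or NC-F 3 (−0.73 to −0.59, 0.0547 to 0.0689), and that of sf3b6 without HT-M 2, HT-M 3, NC-F 2 or NC-F 3 (−0.51 to −0.46, 0.0578 to 0.0698). Sf3b6 also lost its call with all 18 libraries in the fit (limma adjusted p = 0.0627).

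Markers of other cells moved between the same groups. The summed level of 9 endothelial genes was 13.4 to 15.8 FPKM in NC-F and 43.1 to 51.3 in HT-M, with 5 of 6 tested genes higher. That of 7 granulosa and theca genes was 67.7 to 103 and 118 to 132, with 5 of 7 higher. These 7 genes do not mark ovarian cells alone, as their sum was higher in testis-type groups (means of 148.9 in IC-F, 226.8 in NC-M and 188.9 in HT-F). The summed level of 3 myeloid genes was 29.8 to 38.6 and 73.3 to 108.5, with 1 of 2 tested higher, and that of 2 red blood cell genes was 0.98 to 1.32 and 2.28 to 4.03, with 1 of 2 higher. The 8 oocyte genes summed to 7083 to 8096 and 6379 to 6812, with 4 lower and 1 higher. Their part in the changes of the splicing factor genes was not tested.

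**Figure D4:**
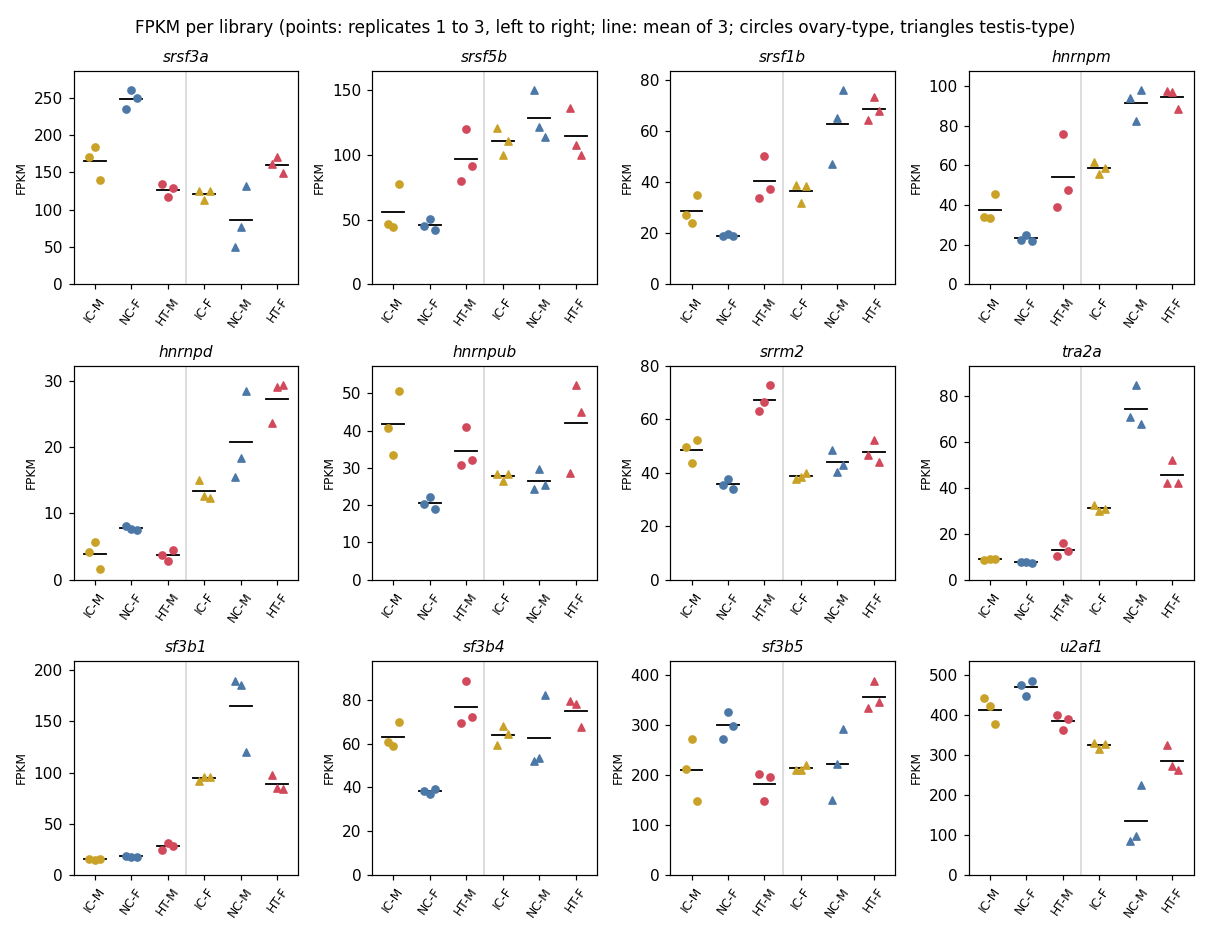
FPKM per library (y axes, each from 0) of 12 splicing factor genes by group (x axis); circles are ovary-type and triangles testis-type libraries, and lines are means of 3. In the ovary, srsf3a, hnrnpd, sf3b5 and u2af1 are higher in NC-F than in HT-M and the other 8 lower; in the testis, NC-M 3 lies apart from NC-M 1 and NC-M 2 for u2af1, sf3b1 and srsf3a.

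**Figure D5:**
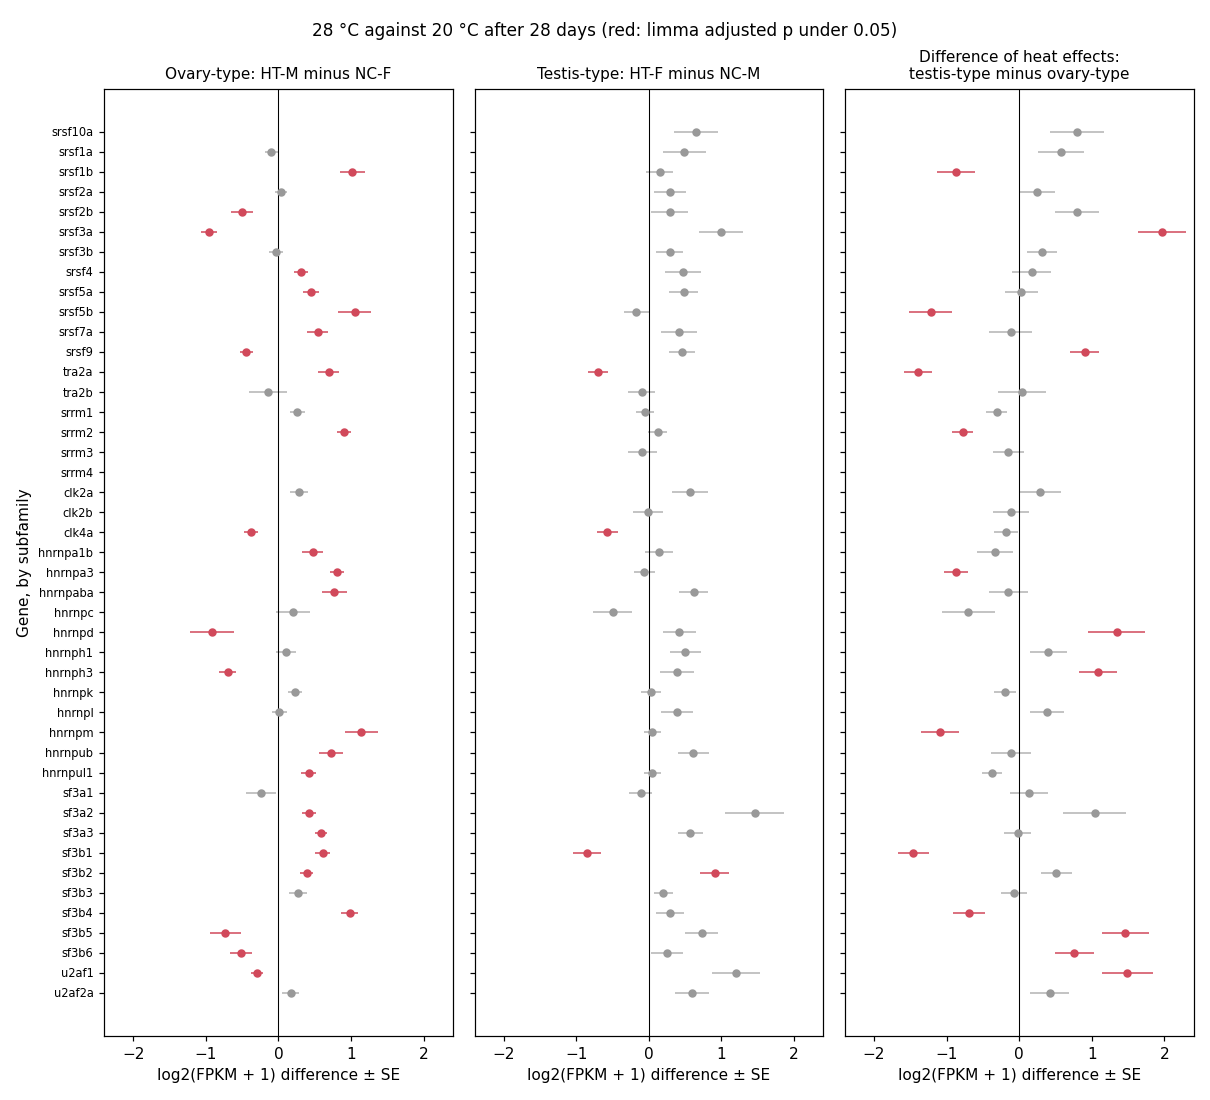
Differences between 28 °C and 20 °C after 28 days, on the log2(FPKM + 1) scale with SE (x axes), for each gene (rows) in ovary-type libraries, in testis-type libraries, and as the testis-type effect minus the ovary-type one. Red marks a limma adjusted p under 0.05: 27 genes in the ovary, 4 in the testis and 15 differences.

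Ovaries kept at 20 °C were also compared with day 0. In NC-F against IC-M, 3 of 40 were higher and 7 lower, or 25.0% where 25.5% of all genes were called (11.9% higher, 13.6% lower). The 7 lower genes were hnrnpa1b, hnrnpa3, hnrnpub, sf3a3, sf3b4, srrm2 and srsf1b. Hnrnpub, a relative of the nuclear scaffold protein hnRNP U, fell from 40.7, 33.6 and 50.6 in IC-M to 20.4, 22.2 and 18.9 in NC-F (−0.97 ± 0.163, limma adjusted p = 0.00392). Sf3b4 fell from 60.9, 59.0 and 70.3 to the NC-F values above (−0.71 ± 0.112, limma adjusted p = 0.00295), and srsf1b from 27.4, 24.0 and 35.2 (−0.55 ± 0.171, limma adjusted p = 0.0452). The 3 higher genes were srsf3a (0.60 ± 0.109, limma adjusted p = 0.00599), sf3b6 (0.67 ± 0.150, limma adjusted p = 0.0141) and hnrnpd (0.95 ± 0.302, limma adjusted p = 0.0486). Srsf3a rose from 169.9, 183 and 140.2 in IC-M. Without NC-F 1, NC-F 2, NC-F 3 or IC-M 1, 5, 6, 5 and 6 genes were called, and shares of all genes are not given for these fits. The hnrnpd and srsf1b calls ended without any 1 NC-F library, IC-M 1 or IC-M 3 (hnrnpd 0.58 to 1.05, limma adjusted p = 0.0592 to 0.119; srsf1b −0.58 to −0.40, 0.0855 to 0.119). The sf3b6 call ended without NC-F 2 (0.62, limma adjusted p = 0.0509), and that of srsf3a with all 18 libraries in the fit (limma adjusted p = 0.129). Of 12 alternatives, srsf1b lost its call in 9, hnrnpa1b and hnrnpd in 8 each, hnrnpa3 and sf3a3 in 3 each and srrm2 in 1. Markers moved in this contrast as well. The summed endothelial genes lay at 7.52 to 10.4 in IC-M against 13.4 to 15.8 in NC-F, with 2 of 6 tested genes higher. Of 7 granulosa and theca genes 3 were higher and 1 lower. Of 8 oocyte genes 3 were higher, and of 2 tested myeloid genes 1. Their part was not tested.

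The NC-F libraries stood at one end of the ovary-type range for many of the genes. All 3 lay below all 6 IC-M and HT-M libraries for 12 of the 40 tested genes (30.0%, against 16.7% of all genes tested), namely hnrnpa1b, hnrnpa3, hnrnpm, hnrnpub, sf3a2, sf3a3, sf3b2, sf3b4, srrm2, srsf1b, srsf4 and tra2a. They lay above all 6 for hnrnpd, sf3b5, sf3b6, srsf3a and u2af1 (12.5%, against 15.2%). HT-M against NC-F and NC-F against IC-M share the NC-F libraries, so opposite directions in the 2 contrasts are not independent.

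Heated ovaries differed from day 0 in 9 of the 40 genes (22.5%, where 24.5% of all genes were called), 6 higher and 3 lower (16.1% and 8.44% of all genes). Sf3b1 stood at 15.7, 14.7 and 15.5 in IC-M and at 23.9, 31.2 and 28.3 in HT-M (0.81 ± 0.107, limma adjusted p = 0.000759). Hnrnpaba, which binds RNA in nucleus and cytoplasm, stood at 115, 109 and 151 in IC-M and at 177, 266 and 201 in HT-M (0.77 ± 0.171, limma adjusted p = 0.0112). Srsf5b rose by 0.81 ± 0.225 (limma adjusted p = 0.0302), with IC-M 3 at 77.6 against 46.4 and 44.4 in the other IC-M libraries. The lower genes were hnrnph3 (−0.50 ± 0.122, limma adjusted p = 0.0178), srsf9 (−0.39 ± 0.0936, limma adjusted p = 0.0164) and srsf3a (−0.37 ± 0.109, limma adjusted p = 0.0394). Markers of other cells moved in this contrast too. The summed endothelial genes lay at 7.52 to 10.4 in IC-M against 43.1 to 51.3 in HT-M, with 6 of 6 tested genes higher. The granulosa and theca genes lay at 51.2 to 63.7 against 118.3 to 131.8, with 6 of 7 higher, and the myeloid genes at 26.8 to 34.1 against 73.3 to 108.5, with 2 of 2 tested higher. The red blood cell genes lay at 0.37 to 1.2 against 2.28 to 4.03, with 1 of 2 higher, and 2 of 8 oocyte genes were lower. Their part was not tested.

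Single libraries weighed on this contrast. Without IC-M 3 the count rose to 17 (12 higher, 5 lower), and without HT-M 2, HT-M 3 or IC-M 1 it was 4, 4 and 3. Shares of all genes are not given for these fits, so the shifts are not read as particular to the splicing factor genes. The srsf5b and hnrnph3 calls ended without HT-M 2, HT-M 3, IC-M 1 or IC-M 2 (srsf5b 0.65 to 0.84, limma adjusted p = 0.0751 to 0.106; hnrnph3 −0.51 to −0.42, 0.0554 to 0.0729). That of srsf9 ended without HT-M 1, HT-M 2 or IC-M 1 (−0.37 to −0.31, 0.051 to 0.0623), and that of srsf3a without any 1 library other than IC-M 3 (−0.41 to −0.28, 0.0607 to 0.125). Median-of-ratios scaling turned the split to 3 higher and 6 lower and lowered the median of all genes from 0.05 to −0.06. Of all called genes 46.8% were then higher. All 18 libraries in the fit ended the calls of hnrnph3, srsf9 and srsf3a (limma adjusted p = 0.107, 0.095 and 0.422).

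In testis-type gonads the comparison of 28 °C with 20 °C called few of the genes. In HT-F against NC-M, 1 of 43 was higher and 3 lower, or 9.30% where 10.7% of all 22791 genes were called (6.17% higher and 4.5% lower), which is near the background. Sf3b2, the subunit that holds SF3B to the branch point region, stood at 48.3, 54.0 and 83.5 in NC-M and at 118, 119 and 105 in HT-F (0.91 ± 0.199, limma adjusted p = 0.0345). Sf3b1 fell from 190.1, 185.8 and 119.9 to 98.1, 85.2 and 84.4 (−0.85 ± 0.189, limma adjusted p = 0.0351). Tra2a fell from 70.9, 84.8 and 68.1 to 42.3, 52.1 and 42.2 (−0.70 ± 0.142, limma adjusted p = 0.0305). The fourth call was clk4a, described above. None of the 12 SR genes and none of the 12 hnRNP genes was called by limma at the adjusted threshold. Over all 43 genes, 16 had an unadjusted p under 0.05, or 37.2%, as had 37.2% of all genes. The median change of the 43 was 0.29 and that of all genes 0.09. The summed Sertoli and Leydig genes lay at 129.7 to 149.7 in NC-M against 166.9 to 259.4 in HT-F, with 2 of 4 higher. Of 9 endothelial genes 2 were higher and 1 lower. Of the tested sperm, oocyte and myeloid genes, 1 of 13, 1 of 4 and 1 of 2 were lower. No granulosa, theca or red blood cell gene was called. Their part was not tested.

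The count of called splicing factor genes turned on the NC-M libraries. Without NC-M 3, which was singled out from these same data, 20 genes were higher and 4 lower, or 55.8% where 47.7% of all genes were called in that fit. Of all 22407 genes in it, 6400 were higher and 4293 lower. The median change was 0.52 for the 43 genes and 0.11 for all genes. Of the 13 tested sperm genes, 8 were then higher and 2 lower. Shares of all genes are not given for the other fits below. Without HT-F 1 a single gene was called, and without HT-F 2, HT-F 3, NC-M 1 or NC-M 2 none. With NC-M 1 and NC-M 2 left out, a choice made after seeing the data, none was called, and with all 18 libraries in the fit 13 were higher and 3 lower. The calls of sf3b2, sf3b1 and tra2a ended without any 1 library other than NC-M 3 (sf3b2 0.75 to 0.97, limma adjusted p = 0.0698 to 0.115; sf3b1 −0.92 to −0.74, 0.0548 to 0.116; tra2a −0.80 to −0.61, 0.0568 to 0.11).

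Testis-type gonads were also compared between day 0 and 28 days at 20 °C. In NC-M against IC-F, 11 of 43 were higher and 6 lower, or 39.5% where 34.5% of all genes were called (16.4% higher, 18.1% lower). Hnrnpc, which binds uridine-rich stretches of introns, rose from 17.7, 17.3 and 18.6 to 57.1, 66.8 and 29.8 (1.39 ± 0.266, limma adjusted p = 0.00726). Hnrnpa3 rose from 69.6, 54.8 and 63.3 to 139, 156 and 149.9 (1.24 ± 0.148, limma adjusted p = 0.0018). Tra2a rose from 32.6, 30.0 and 30.9 to the NC-M values above (1.23 ± 0.142, limma adjusted p = 0.00164).

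On the lower side, sf3a2 stood at 141, 139 and 142 in IC-F and at 28.5, 40.8 and 106.7 in NC-M (−1.47 ± 0.404, limma adjusted p = 0.0245). U2af1 stood at 329, 315 and 326 in IC-F and at the NC-M values given above (−1.39 ± 0.328, limma adjusted p = 0.0148). Hnrnpaba stood at 113, 115 and 115 in IC-F and at 48.1, 49.8 and 82.1 in NC-M (−0.96 ± 0.201, limma adjusted p = 0.00967). For each of these 3, NC-M 3 was the library nearest to IC-F, though no NC-M library reached it.

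Without NC-M 3, 25 genes were called in this contrast, or 58.1% where 54.2% of all genes were called in that fit. Of the splicing factor genes 11 were then higher and 14 lower. Of all 22407 genes, 6155 were higher and 5994 lower. The median change was −0.19 for the 43 genes and 0.13 for all genes. Without NC-M 2, IC-F 1, IC-F 2 or IC-F 3 the counts were 8, 8, 9 and 8. Shares of all genes are not given for the latter fits. The sf3a2 call ended without NC-M 1, NC-M 2 or any 1 IC-F library (−1.48 to −1.08, limma adjusted p = 0.0571 to 0.0788), and that of u2af1 without NC-M 2, IC-F 1 or IC-F 3 (−1.38 to −1.23, 0.0504 to 0.0518). With median-of-ratios scaling 9 genes were higher and 8 lower, and the median of all genes went from 0.13 to 0. Of all called genes 36.3% were then higher. The NC-M libraries lay below all IC-F and HT-F libraries for hnrnpaba, sf3a2, sf3b2 and u2af1 (9.30%, against 8.12% of all genes tested) and above them for clk4a, sf3b1 and tra2a (6.98%, against 7.79%). The summed sperm and flagellum genes lay at 3963 to 4035 in IC-F against 1011 to 1884 in NC-M and 1694 to 2046 in HT-F. In NC-M against IC-F, 11 of 13 tested sperm genes were lower. Of 9 endothelial genes 2 were higher, as was 1 of 5 tested granulosa and theca genes, 1 of 4 oocyte genes and 1 of 2 myeloid genes. Of 2 red blood cell genes 1 was higher and 1 lower. Their part in the changes of the splicing factor genes was not tested.

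Heated testes against day 0 gave calls in one direction. In HT-F against IC-F, 10 of 43 genes were higher and 0 lower (23.3%, where 23.9% of all genes were called, 14.8% higher and 9.04% lower). Hnrnpa1b stood at 64.9, 63.4 and 62.8 in IC-F and at 166, 134 and 159 in HT-F (1.24 ± 0.199, limma adjusted p = 0.00507). Hnrnpa3 stood at 128, 162 and 137 in HT-F (1.17 ± 0.148, limma adjusted p = 0.00216). Sf3b6 stood at 254, 269 and 264 in IC-F and at 508, 572 and 497 in HT-F (1.00 ± 0.219, limma adjusted p = 0.0156). For all 3 genes the NC-M libraries, at 110.6 to 187, 139 to 156 and 308 to 535, also lay above IC-F. The remaining calls were hnrnpc, hnrnpd, hnrnpm, sf3b5, srrm1, srsf1b and tra2a. Median-of-ratios scaling left 7 higher and 0 lower and lowered the median of all genes from 0.10 to −0.04. Of all called genes 46.2% were then higher. With all 18 libraries in the fit 18 were higher and 1 lower. Without HT-F 2, HT-F 3, IC-F 2 or IC-F 3 the count was 4 each, and without IC-F 1 it was 6. Shares of all genes are not given for the fit of 18 libraries or for those without single libraries. The sf3b6 call ended without any 1 library other than HT-F 1 (0.93 to 1.04, limma adjusted p = 0.0511 to 0.0637). The calls of hnrnpc and sf3b5 were lost in 9 of 12 alternatives each, that of tra2a in 7, and those of hnrnpd and srsf1b in 4 each. Markers moved here as well. The summed Sertoli and Leydig genes lay at 97.2 to 109.9 in IC-F against 166.9 to 259.4 in HT-F, with 2 of 4 higher. The endothelial genes lay at 68.2 to 76.6 against 96.3 to 114.3, with 4 of 9 higher and 1 lower, and 1 of 5 tested granulosa and theca genes was higher. Of 13 tested sperm genes 3 were lower. Their part was not tested.

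The effects of 28 °C were then compared between gonad types in a fit of all 18 libraries. The difference, testis-type minus ovary-type, was called for 15 of 43 genes, 7 above 0 and 8 below 0. This is 34.9% where 32.6% of all genes were called (16.4% above and 16.3% below). Srsf3a had the largest difference, 1.97 ± 0.332 (limma adjusted p = 0.000837). It fell in the ovary, while in the testis it stood at 49.7, 76.3 and 131 in NC-M and at 160.7, 170.7 and 149.0 in HT-F. That testis change was not called (1.00 ± 0.303, limma adjusted p = 0.0644), and it was 1.36 ± 0.173 without NC-M 3. U2af1 followed at 1.49 ± 0.351 (limma adjusted p = 0.00599), with 324, 271 and 260 in HT-F. Sf3b5, hnrnpd and hnrnph3, which fell in the ovary, had differences of 1.46 ± 0.321, 1.34 ± 0.392 and 1.09 ± 0.263 (limma adjusted p = 0.00411, 0.019 and 0.00698).

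Of the differences below 0, tra2a (−1.39 ± 0.191) and sf3b1 (−1.46 ± 0.212) belonged to genes called in opposite directions, higher in HT-M than in NC-F and lower in HT-F than in NC-M (limma adjusted p of the difference = 0.000196 and 0.00029). Srsf5b, hnrnpm and srsf1b, which rose in the ovary, had differences of −1.22 ± 0.291, −1.09 ± 0.263 and −0.87 ± 0.258 (limma adjusted p = 0.00654, 0.00692 and 0.0194). In the testis their changes were −0.17, 0.05 and 0.15, none of them called. Without NC-M 3, 19 differences lay above 0 and 10 below, or 67.4% where 51.9% of all genes were called in that fit. Of all 24881 genes in it, 6618 lay above 0 and 6296 below. The differences of srsf3a and u2af1 were then 2.33 ± 0.205 and 1.92 ± 0.138. The sf3b6 and sf3b4 differences, called at 0.76 and −0.69, were lost in 13 and 4 of 19 alternatives. The srsf1b call ended without HT-M 2 (−0.71, limma adjusted p = 0.0519), and those of hnrnpd and hnrnph3 with NC-M 1 and NC-M 2 left out (0.85 and 0.71, limma adjusted p = 0.186 and 0.0602).

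Other genes of the splicing machinery were followed in 6 lists. In HT-M against NC-F, the SR protein kinase list had 4 of 7 genes higher and 0 lower, the Sm and LSm core 5 of 14 higher and 2 lower, and the U1, U5 and U4/U6 proteins 4 of 27 higher and 7 lower. The step factors and helicases had 7 of 33 higher and 8 lower, the cell-type splicing regulators 13 of 26 higher and 4 lower, and the exon junction, export and decay list 8 of 18 higher and 2 lower. Their median changes were 0.49, 0.10, −0.05, 0.13, 0.34 and 0.26, against 0.07 for all genes, of which 28.7% were higher and 20.0% lower. In HT-F against NC-M the lists had 1, 0, 1, 7, 2 and 2 genes higher and 0, 0, 2, 0, 3 and 1 lower, with medians of 0.36, 0.53, 0.35, 0.35, 0.21 and 0.36 against 0.09 for all genes, of which 6.17% were higher and 4.5% lower. Without NC-M 3 they had 4, 10, 17, 19, 10 and 11 higher and 1, 0, 3, 1, 6 and 1 lower, where 47.7% of all genes were called. In that fit 6400 of all 22407 genes were higher and 4293 lower.

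Srpk2, a cytoplasmic kinase of SR proteins, rose from 5.13 ± 0.720 in NC-F to 10.5 ± 0.839 in HT-M (0.91 ± 0.124, limma adjusted p = 0.000769). Prpf4bb, a nuclear kinase of the spliceosome, rose in both gonad types, from 19.1 ± 0.536 in NC-F to 33.0 ± 1.45 in HT-M (limma adjusted p = 0.00271) and from 24.8 ± 4.40 in NC-M to 40.0 ± 3.84 in HT-F (limma adjusted p = 0.0371). Syf2, of the complex that assembles on the active spliceosome, fell from 151.5 ± 1.98 in NC-F to 63.2 ± 6.21 in HT-M (−1.25 ± 0.103, limma adjusted p = 6.24e-05). Prpf31, which joins U4/U6 to U5, rose from 123 ± 5.50 to 239 ± 13.7 in the same contrast (0.95 ± 0.0912, limma adjusted p = 0.000142). Cwc22, which brings in the exon junction complex, rose from 18.4 ± 1.06 to 41.1 ± 4.12 (1.12 ± 0.111, limma adjusted p = 0.000177), and lsm1, of the decapping ring, fell from 244 ± 9.50 to 116 ± 11.2 (−1.07 ± 0.170, limma adjusted p = 0.00163).

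In the same contrast cd2bp2, a U5 protein, rose by 1.03 ± 0.121 (limma adjusted p = 0.000401), snrpg, an Sm protein, by 0.61 ± 0.116 (limma adjusted p = 0.00353) and rbm5, which regulates exon choice in apoptosis genes, by 0.86 ± 0.101 (limma adjusted p = 0.000406). Mbnl3 of the muscleblind family rose by 0.80 ± 0.129 (limma adjusted p = 0.00177), from 0.81 ± 0.110 to 2.15 ± 0.277. It passed the filter of 1 FPKM only through the HT-M libraries, so a call could only be a rise and is no support. It is among the 13 higher genes of the cell-type splicing regulators. Acin1b and acin1a, which sit with the exon junction complex, rose by 0.60 ± 0.0891 and 0.49 ± 0.0782 (limma adjusted p = 0.00119 and 0.0017).

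In the testis, luc7l, a U1-associated gene, fell from 65.0 ± 14.0 in NC-M to 31.0 ± 1.24 in HT-F (−1.02 ± 0.193, limma adjusted p = 0.0267). Pnn, an exon junction partner, fell from 125 ± 18.0 to 63.6 ± 3.50 (−0.96 ± 0.150, limma adjusted p = 0.0179), and rbm25a from 109.7 ± 18.0 to 58.7 ± 2.91 (−0.88 ± 0.155, limma adjusted p = 0.0232). Celf3a, of the cell-type splicing regulators, fell from 9.08 ± 0.993 to 3.04 ± 0.609 (−1.32 ± 0.169, limma adjusted p = 0.00979). Upf2, of nonsense-mediated decay, rose from 15.6 ± 5.00 to 30.3 ± 0.778 (0.96 ± 0.197, limma adjusted p = 0.0313). Dnajc8 and smu1a rose by 0.90 ± 0.178 and 0.76 ± 0.147 (limma adjusted p = 0.0294 and 0.0281). Without NC-M 3 each of these 7 genes and prpf4bb kept its call and its direction (luc7l −1.20, celf3a −1.34, upf2 1.19). Each of the 8 lost its call without at least 1 of the other libraries. Prpf4bb was lost in 8 of 13 alternatives, luc7l and upf2 in 7, dnajc8, smu1a and rbm25a in 6, pnn in 3 and celf3a in 2.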

How the data were processed

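The authors deposited FPKM with 2 decimals for 43106 genes in 18 libraries, per the file headers. Libraries started from 0.4 ug RNA, as the labels' protocols state, and no source used here names the aligner, counter or build. Symbols were matched to the RefSeq table of ASM1485139v1, used for names only. Linear models with a mean-variance trend were fitted to log2(FPKM + 1) with limma 3.58.1 (R 4.3.3) for genes at 1 FPKM or more in at least 3 fitted libraries. Fold changes on this scale understate the change of low genes. P-values were Benjamini-Hochberg adjusted over all genes tested and called under 0.05. Contrasts within a gonad type were fitted on its 9 libraries, the others on all 18, and within a type 40 or 43 of the 44 genes were tested. Clk2b, srrm3 and srsf10a were too low in the ovary, and srrm4 in every fit. The fits were tested on simulated data. Named genes were all CLK genes and, per contrast, up to 5 (28 °C against 20 °C and its difference between types) or 3 (others) called genes in each direction with the largest change and a group mean of at least 5 FPKM. From each other splicing list, up to 2 called genes with the smallest adjusted p per heat contrast were named, except 1 that is not reported here. Members, lists and the grouping into gonad types were chosen with earlier results of these data known. Figures used Python 3.11.15 and matplotlib 3.10.9. No sequences are shown.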

Additional observations from a re-analysis of the deposited data

Results flagged for a closer look

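For 15 of the genes the effect of 28 °C against 20 °C differed between gonad types by a test of the difference itself (testis-type HT-F minus NC-M, less ovary-type HT-M minus NC-F, limma adjusted p under 0.05). This is 34.9% of the 43 tested, where 32.6% of all genes were called. The differences above 0 were 1.97 for srsf3a, 1.49 for u2af1, 1.46 for sf3b5, 1.34 for hnrnpd, 1.09 for hnrnph3, 0.90 for srsf9 and 0.76 for sf3b6 (log2). Those below 0 were −1.46 for sf3b1, −1.39 for tra2a, −1.22 for srsf5b, −1.09 for hnrnpm, −0.87 for hnrnpa3, −0.87 for srsf1b, −0.78 for srrm2 and −0.69 for sf3b4. The sf3b6 difference lost its call in 13 of 19 alternatives, that of sf3b4 in 4, and those of hnrnpd, hnrnph3 and srsf1b in 1 each. The testis-type arm rests on NC-M, whose library 3 stood apart, and the letters of 12 of the 18 libraries went against their gonad genes.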

How the results depend on the processing

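None of the 63 changes picked by size turned direction: over their 842 refits, 738 kept their side of the threshold and 104 lost their call. Smaller called changes did turn. With median-of-ratios scaling these were sf3b3 and srrm1 at day 0, and hnrnpk and srrm2 at 20 °C. Srsf1a turned in NC-M against NC-F with NC-M 1 and NC-M 2 left out. The counts of called splicing factor genes in the 3 contrasts between gonad types stayed within 1.5 times under every alternative (33 to 35, 31 to 36 and 33 to 35 when single libraries were left out, at day 0, 20 °C and 28 °C). HT-M against NC-F ranged from 20 to 26 without single libraries. HT-F against NC-M, at 4, went to 2 with no filter on low values, to 16 with all 18 libraries in the fit, to 0 with the replicate block and to 0 with NC-M 1 and NC-M 2 left out, and ranged from 0 to 24 without single libraries. HT-F against IC-F, at 10, went to 19 with all 18 libraries. Without single libraries NC-F against IC-M gave 5 to 12, NC-M against IC-F 8 to 25, HT-M against IC-M 3 to 17, HT-F against IC-F 4 to 9 and the difference of the heat effects 12 to 29. The cause was not tested. No share of all genes stands beside these counts, so their shifts are not read as particular to the splicing factor genes. The replicate numbers of the labels did not pair the libraries: the correlation of the deviations of same-numbered libraries lay between −0.243 and 0.242 and was not above 0.1 in every pair of any contrast. All 6 libraries of HT-F against HT-M correlated best with their own number, as a hint from the data only. With the number as a replicate block, 25, 0, 7, 15, 7, 7, 34, 32, 35 and 15 genes were called in place of 27, 4, 10, 17, 9, 10, 35, 35, 35 and 15, in the order HT-M against NC-F, HT-F against NC-M, NC-F against IC-M, NC-M against IC-F, HT-M against IC-M, HT-F against IC-F, the 3 contrasts between types and the difference of effects. Depth is unknown, so low genes carry no counting interval.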
